A study of Drosophila melanogaster with 36 samples.

Results

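The data compared whole adult female Drosophila melanogaster sampled 32 h after heat with untreated flies, on 8 of the 36 arrays of the series. These 8 arrays were all those labelled 32 h after 1 h at 36 °C, in both lines, and all those labelled untreated. The groups were flies of the line selected for heat resistance at 32 h, flies of the nonselected line at 32 h, untreated selected flies and untreated nonselected flies, with 2 arrays each. The other 28 arrays came from 7 other times after heat. No mutation, transgene or drug is named in the labels. Nor do they give the flies' age, the number of flies in an RNA sample, the number of populations selected or the hour of collection. The labels do not say when untreated flies were collected relative to those at 32 h, so heat, age and time of day cannot be told apart in any difference below. The labels call the 2 arrays of a group bioreplicates without naming separate cultures. The p-values thus measure the spread between such arrays, which may be partly technical. Unless stated otherwise, that spread was estimated over all 36 arrays.

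Total RNA was labelled with biotin and read on a 1-colour oligonucleotide array. Levels below are log2 of the authors' GCRMA intensity, and a difference of 1 is a 2-fold difference. Where the values of the 4 arrays of a group are listed, they run selected replicate 1, selected replicate 2, nonselected replicate 1, nonselected replicate 2. A probe set counted as called when its Benjamini-Hochberg adjusted p from limma lay under 0.05 over the 8199 probe sets tested. Arrays dimmer than an intensity of 32 (log2 of 5) were raised to 32 where they formed the lower group of a fold, which then reads "at least". The levels of whole flies sum over tissues, so fewer cells of a type and less RNA per cell cannot be told apart.

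Several systems known to respond to time and stress are covered by this array. The circadian clock of flies is a feedback loop in which the activators Clk and cyc drive the genes of their own inhibitors, among them per and tim, while vri and Pdp1 act in a second loop that sets the level of Clk, and cry encodes a blue-light receptor. Metallothioneins are small cysteine-rich proteins that bind copper, zinc and cadmium, and the copper importer Ctr1B is repressed when copper is plentiful, through the same metal-responsive factor, MTF-1. Heat shock proteins are chaperones whose genes are switched on by heat within minutes, and the Toll and Imd pathways switch on antimicrobial peptide genes in the fat body and gut.

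Some of the 8 arrays stood apart before any test. Although all flies are labelled female, transcripts of male accessory glands, ejaculatory bulb and testis were present in selected 32 h replicate 2. Of 38 measured genes on a list of male reproductive genes, 29 peaked there among all 36 arrays, and 25 exceeded every other array by more than 1 log2 unit. The summed intensity of the list was 8862 on that array and between 454.8 and 744.9 on the other 35. Ebp, which encodes a protein of the ejaculatory bulb, reached 11.62 there against at most 3.68 elsewhere, and Acp95EF, an accessory gland gene, reached 9.69 against at most 2.31. Only 3 genes of this list entered the test, and none was called. In selected 32 h replicate 1 the chorion genes had a median difference of -7.71 from their untreated mean, while the other 32 h arrays had -0.35, -0.68 and -1.52. Nonselected untreated replicate 2 was low in photoreceptor genes (median -0.77) and muscle genes (median -0.97). The log2 ratio of 3' to 5' signal of 2 control transcripts lay between 1.48 and 2.11 on the 4 replicate 1 arrays and between 1.11 and 1.32 on the 4 replicate 2 arrays. The transcripts of the yolk proteins, made by the female fat body, were high on all 8 arrays, with Yp1 between 14.22 and 15.01.

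**Figure D1:**
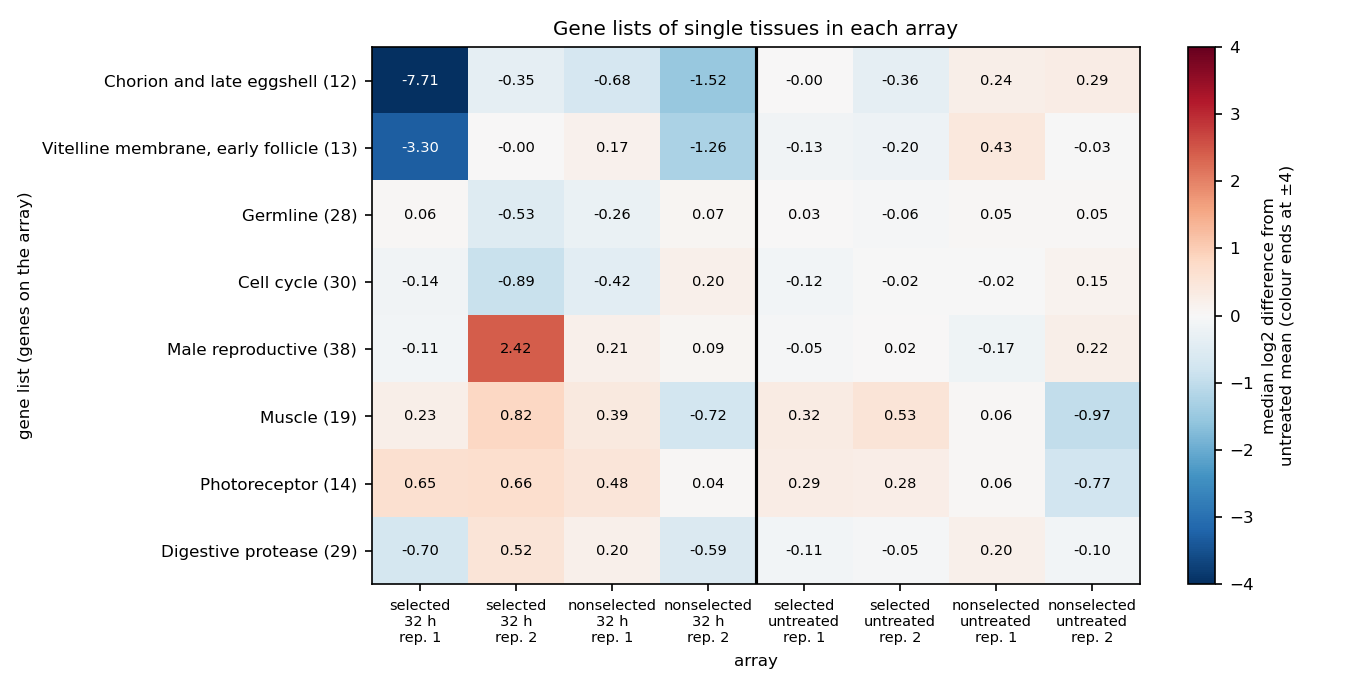
Median log2 difference from the mean of the 4 untreated arrays (colour and printed value) for the genes of 8 lists (rows, with the number of genes on the array in brackets) in each of the 8 arrays (columns). The chorion list is at -7.71 in selected 32 h replicate 1, and the male reproductive list is at 2.42 in selected 32 h replicate 2.

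At 32 h after heat, the 5 called probe sets that rose most belonged to phu, the clock gene tim, the alkaline phosphatase gene Alp2, the metallothionein gene MtnA, and Hsp22 with CG4456. The 5 that fell most belonged to the Hsp70B copies, CG7214, the acyl-CoA binding protein gene Acbp6, the storage protein gene Lsp2 and the copper importer gene Ctr1B. In all, 257 of 8199 probe sets were called (3.13%), of which 187 were higher at 32 h (2.28%) and 70 lower (0.854%). More than 2-fold changes made up 71 of the higher and 25 of the lower probe sets. The 257 carried 224 named genes, with 11 probe sets annotated to several genes and 20 to none. In 155 of these 257 the 4 arrays at 32 h and the 4 untreated arrays did not overlap, while 442 of all 8199 probe sets (5.39%) showed no overlap. Genes named below for the size of their change from untreated flies were picked from the calls without overlap. Their lack of overlap was fixed by that choice.

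The count of 257 depended on which arrays entered the fit. With only the 8 arrays compared, which leaves 3 residual degrees of freedom in place of 17, 2 probe sets were called (0.0244%), those of tim (adjusted p = 0.0183) and of the Hsp70B copies (adjusted p = 0.0405), and 644 had an unadjusted p under 0.05. The other calls of 32 h against untreated flies were made with a spread estimated over all 36 arrays. The replicate number as a block mattered too: without it 90 probe sets were called (1.1%), all of them among the 257. Single arrays also moved the count. Without selected 32 h replicate 1, the selected line at 32 h was represented by the array with male transcripts alone. Leaving out selected 32 h replicate 1 gave 2014 calls (24.6%), including all 257, and leaving out nonselected 32 h replicate 2 gave 591. The fit without selected 32 h replicate 2, the array with male transcripts, called 157 (1.91%), of which 95 were among the 257. The count was 55 without nonselected 32 h replicate 1, of which 54 were among the 257. Leaving out single untreated arrays gave 72 (replicate 1) and 108 (replicate 2) in the selected line, and 139 and 114 in the nonselected line. Of the 187 higher probe sets, 113 had their highest 32 h value in selected replicate 2, and 30 of the 70 lower ones had their lowest value there. In 46 of the 257 the call held in all 8 fits that left out 1 array. A fit in which both selected 32 h arrays were left out, chosen after seeing the data, called 13 probe sets (0.159%).

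**Figure D2:**
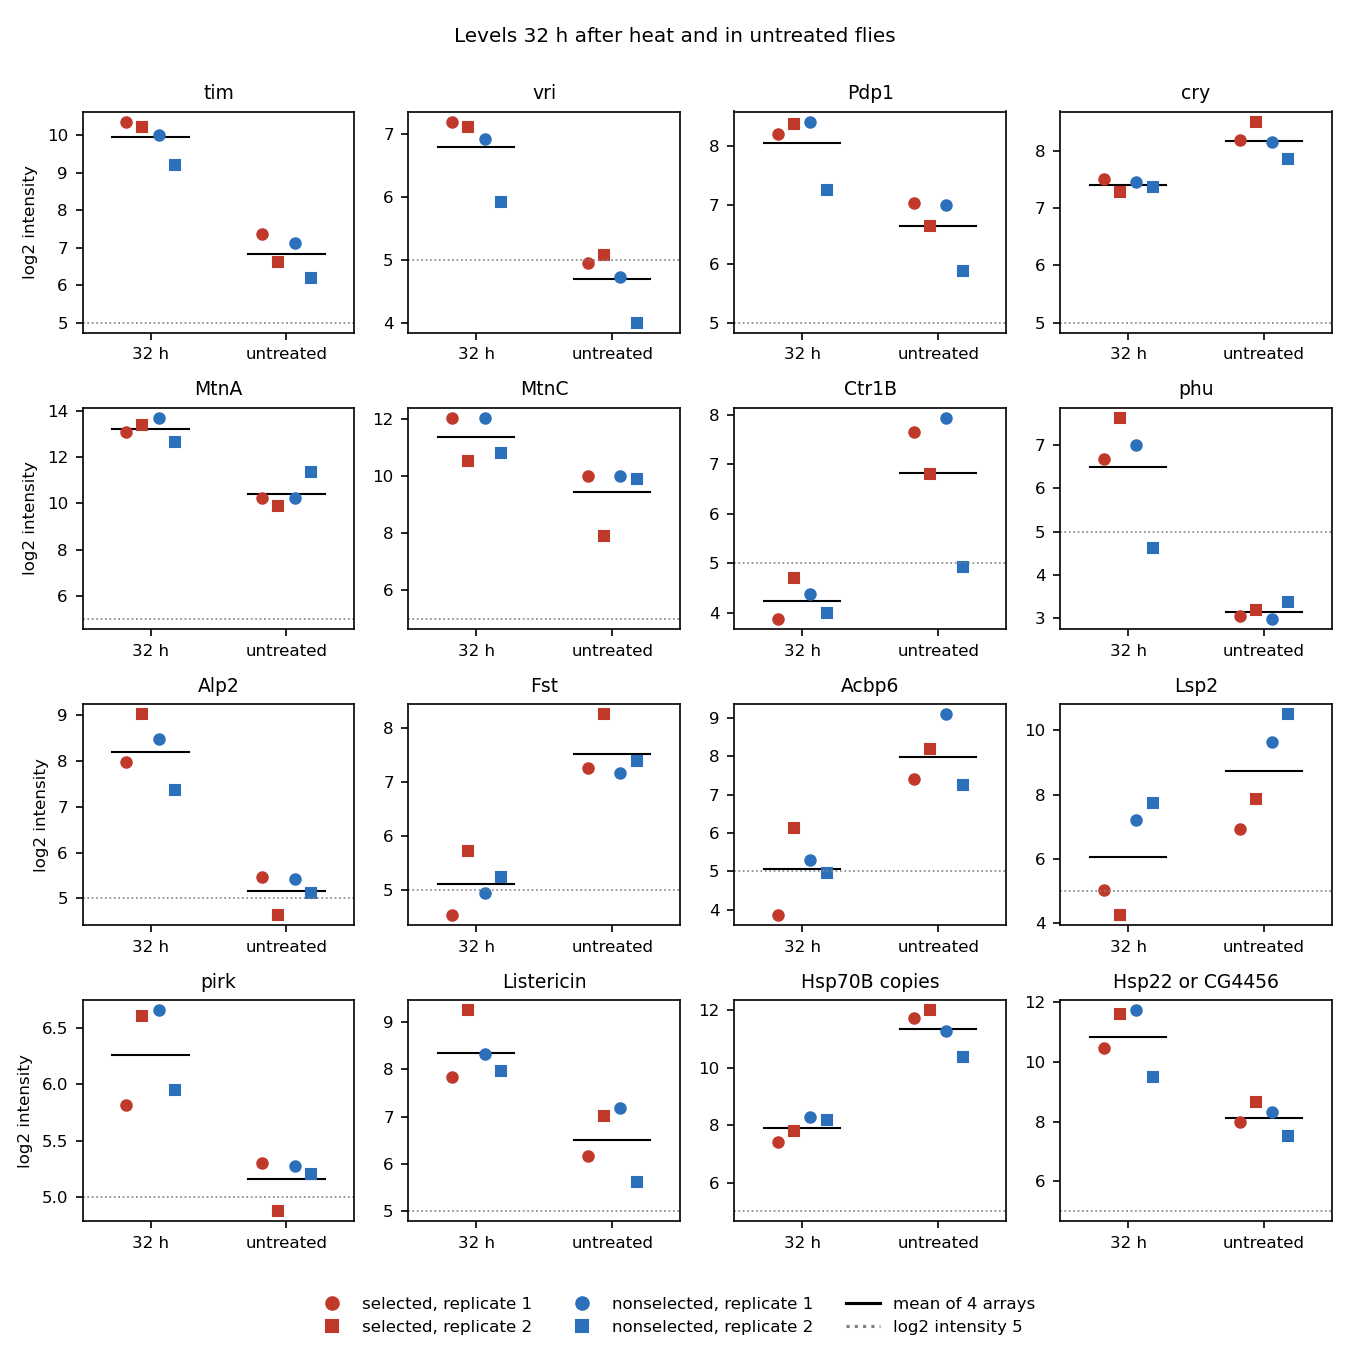
Levels (log2 intensity, vertical axes with separate ranges) of 14 genes and 2 probe sets of several genes on the 4 arrays 32 h after heat (left) and the 4 untreated arrays (right). Points are single arrays, horizontal bars are means of 4 and dotted lines mark log2 intensity 5; tim reached 9.20 to 10.37 at 32 h and 6.19 to 7.37 in untreated flies.

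The smallest adjusted p of the comparison belonged to a clock gene, tim. Of the 10 genes of the clock list that were tested, 4 were higher at 32 h (tim, vri, Pdp1 and cwo), 1 was lower (cry) and 5 were not called, where 2.28% of all probe sets were higher and 0.854% lower, while the median change of the list was -0.06 and that of all probe sets tested was -0.02. The transcript of tim, whose protein partners with Per to inhibit Clk and cyc and is degraded in light, stood at 10.37, 10.22, 10 and 9.20 at 32 h, against 7.37, 6.61, 7.13 and 6.19 in untreated flies. Every 32 h array lay above every untreated array, and within each time nonselected replicate 2 was lowest. The mean was 9.95 ± 0.52 at 32 h and 6.82 ± 0.53 in untreated flies (SD, n = 4 each), an 8.71-fold difference (log2 change 3.12, SE 0.18, adjusted p = 1.11e-09). The change was 2.93 within replicate 1 and 3.31 within replicate 2. A second, dimmer probe set of tim gave 1.28 (SE 0.31, adjusted p = 0.0278), and its call was lost in 5 of the 8 fits without 1 array (adjusted p up to 0.148).

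The gene vri encodes a bZIP repressor that lowers Clk and cry transcription. Its levels were 7.19, 7.10, 6.92 and 5.91 at 32 h, against 4.96, 5.08, 4.73 and 4.01 in untreated flies. No arrays of the 2 times overlapped, and 3 of the 4 untreated arrays lay under log2 of 5. The change was 2.09 (SE 0.21, adjusted p = 8.67e-06), at least 3.39-fold. Pdp1, the bZIP activator of Clk, was at 8.20, 8.37, 8.42 and 7.26 at 32 h and at 7.04, 6.65, 7.0 and 5.87 in untreated flies. Its groups did not overlap, and the lowest array of each time was nonselected replicate 2. The difference was 2.69-fold (log2 change 1.43, SE 0.23, adjusted p = 0.00168, or 0.0508 without the replicate block). The transcript of cwo, a bHLH repressor of clock targets, was 1.53-fold higher with overlapping groups (log2 change 0.61, SE 0.12, adjusted p = 0.00642). That call was lost without the block (adjusted p = 0.0531) and without nonselected 32 h replicate 1 (0.0528).

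In the other direction, cry stood at 7.51, 7.28, 7.46 and 7.38 at 32 h and at 8.20, 8.52, 8.17 and 7.86 in untreated flies. The 4 arrays at 32 h lay close together, all under the lowest untreated array. The fall was 1.71-fold (log2 change -0.77, SE 0.15, adjusted p = 0.0061). The activators did not pass the test: Clk changed by -0.27 (SE 0.25, adjusted p = 0.544) and cyc by -0.18 (SE 0.14, adjusted p = 0.435). The kinase gene dco, whose product phosphorylates Per, changed by -0.15 (SE 0.10, adjusted p = 0.377), and jet, needed for the light response of Tim, by 0.03 (SE 0.09, adjusted p = 0.888). The gene per was not among the 10 tested. The median change of the list was 0.07 without selected 32 h replicate 2 and -0.14 without selected 32 h replicate 1. With both left out, 2 of the 10 were called higher and none lower, where 0.159% of all probe sets were called.

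Across the time course tim was already at 8.32 ± 0.35 by 2 h and 9.82 ± 0.39 by 8 h, was at 9.24 ± 0.34 at 16 h and 9.53 ± 0.59 at 64 h (SD, n = 4 each), and had its highest mean at 32 h. The difference of tim between 32 and 16 h did not pass the test (log2 change 0.70, SE 0.18, adjusted p = 0.16). The vri transcript, in contrast, was at 6.78 ± 0.59 at 32 h and 5.43 ± 0.33 at 16 h, and at 5.45 ± 0.76 at 64 h. It was called in both comparisons, 2.56-fold higher at 32 h than at 16 h (adjusted p = 0.00343) and 2.52-fold higher than at 64 h (adjusted p = 0.0032). Whether vri differed between 32 h and 8 h or earlier times was not tested.

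**Figure D3:**
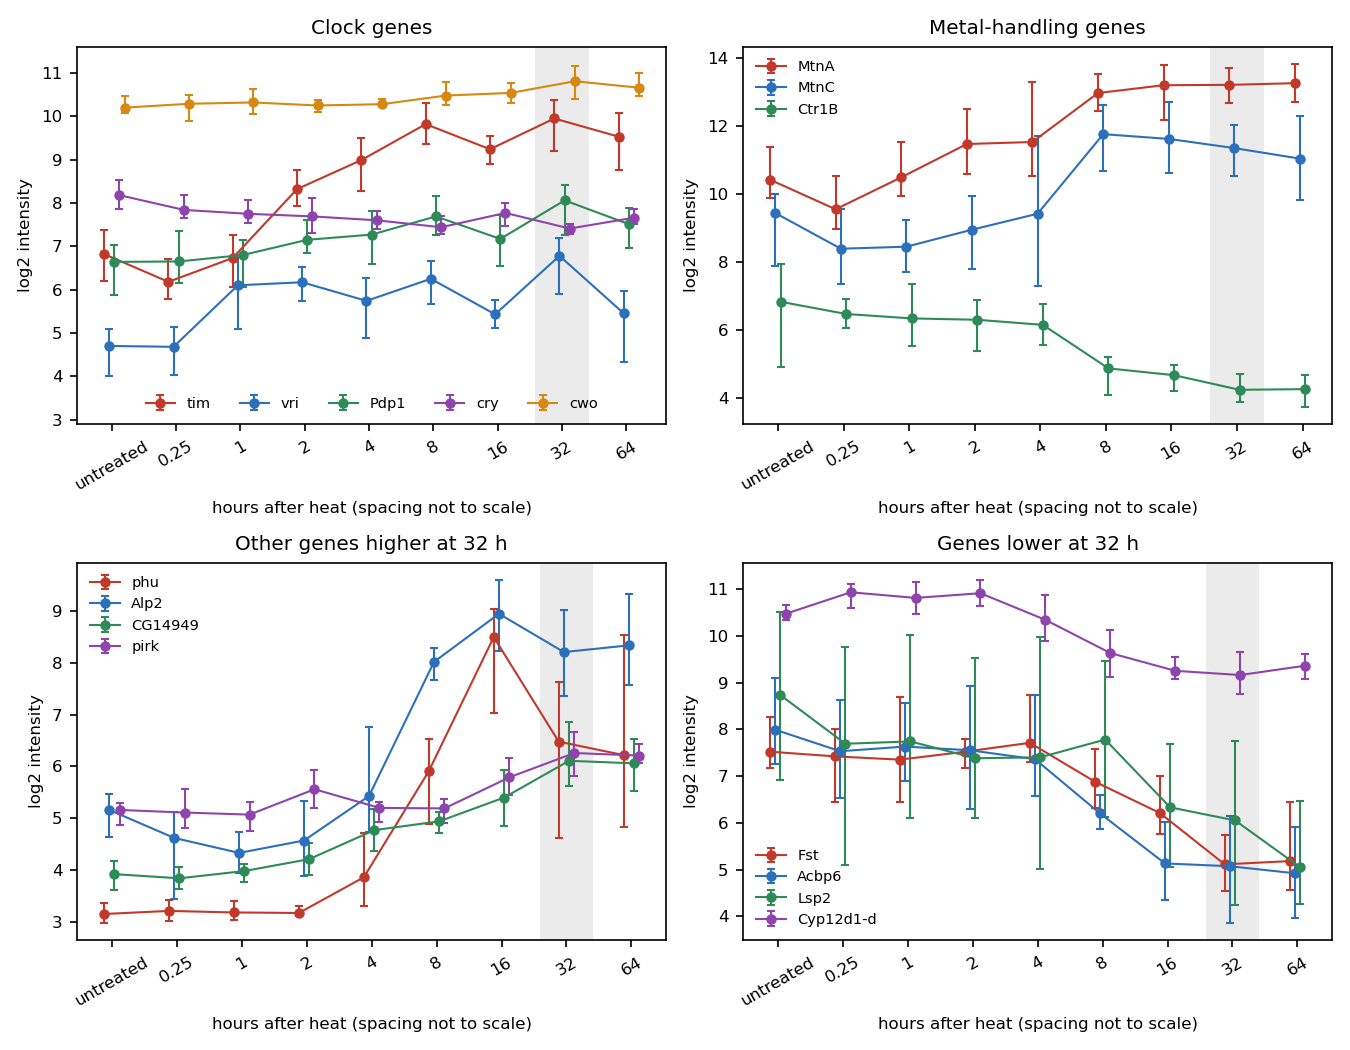
Mean log2 intensity of 16 genes in untreated flies and at 8 times after heat, with the horizontal axis in sampling order and bars from the lowest to the highest of 4 arrays. The grey band marks 32 h; vri is higher there than at 16 and 64 h, while MtnA, Ctr1B and Cyp12d1-d lie near their 16 and 64 h levels.

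Metal-handling genes were called in 3 of 13 tested members, where 3.13% of all probe sets were called. MtnA and MtnC were higher, Ctr1B was lower, and the list's median change was -0.05. The metallothionein gene MtnA stood at 13.09, 13.39, 13.71 and 12.67 at 32 h, against 10.22, 9.87, 10.23 and 11.37 in untreated flies. Nonselected replicate 2 was the lowest array at 32 h and the highest in untreated flies, and the groups did not overlap. The difference was 6.92-fold (log2 change 2.79, SE 0.38, adjusted p = 0.000358). MtnC was at 12.02, 10.53, 12.03 and 10.80 at 32 h and at 9.98, 7.89, 10 and 9.88 in untreated flies. Its replicate 1 arrays lay above its replicate 2 arrays at 32 h, and its lowest untreated array was selected replicate 2. The difference was 3.76-fold (log2 change 1.91, SE 0.31, adjusted p = 0.00193), and the call was lost without the block (adjusted p = 0.309). Another metallothionein gene, MtnB, changed by 0.54 with overlapping groups (SE 0.41, adjusted p = 0.453).

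Ctr1B, which imports copper at the cell surface, was at 3.88, 4.71, 4.38 and 3.99 at 32 h, all under log2 of 5. Untreated flies had 7.66, 6.81, 7.94 and 4.92, so nonselected untreated replicate 2 lay far below the other 3 and close to the 32 h arrays. Ctr1B was at least 3.56-fold lower at 32 h (log2 change -2.59, SE 0.44, adjusted p = 0.00288). The change was -3.67 within replicate 1 and -1.52 within replicate 2. The broadly used copper importer gene Ctr1A (-0.15, adjusted p = 0.354), the copper exporter gene ATP7 (-0.18, adjusted p = 0.294) and MTF-1 itself (-0.05, adjusted p = 0.736) were not called. All 7 tested genes of the iron list were also without a call, between -0.23 and 0.22. MtnA had means of 12.97 ± 0.45 at 8 h, 13.20 ± 0.73 at 16 h, 13.21 ± 0.44 at 32 h and 13.26 ± 0.58 at 64 h (SD, n = 4 each). Ctr1B had 4.87 ± 0.53, 4.67 ± 0.33, 4.24 ± 0.38 and 4.26 ± 0.43 at the same times.

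Heat shock transcripts 32 h after the heat went in opposite directions. Of the 8 tested genes of the heat shock list, 1 was lower (DnaJ-1), where 0.854% of all probe sets were lower, and none was higher, with a median change of -0.21. The Hsp70B copies and Hsp22 are not among them because their probe sets are annotated to several genes, and they were chosen after their values were seen. The probe set of Hsp70Ba, Hsp70Bb, Hsp70Bbb and Hsp70Bc, copies of the main inducible chaperone gene that it cannot tell apart, stood at 7.41, 7.78, 8.27 and 8.17 at 32 h. Untreated flies had 11.71, 11.99, 11.26 and 10.35, all above every 32 h array. The level was thus 10.7-fold lower at 32 h than in untreated flies (log2 change -3.42, SE 0.30, adjusted p = 9.35e-07). It had been 15.06 ± 0.37 at 0.25 h and 12.64 ± 0.63 at 8 h, and was 8.95 ± 0.65 at 16 h, 7.91 ± 0.40 at 32 h and 7.77 ± 0.48 at 64 h (SD, n = 4 each). The untreated mean of 11.33 ± 0.72 therefore lay between the 8 and 16 h means. A second Hsp70B probe set, annotated to CG5608 as well, was at least 3.15-fold lower (log2 change -1.69, SE 0.21, adjusted p = 7.6e-05).

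The probe set annotated to Hsp22, a mitochondrial small heat shock protein gene, and CG4456 behaved otherwise. It stood at 10.48, 11.59, 11.73 and 9.50 at 32 h, against 7.99, 8.67, 8.34 and 7.52 in untreated flies. All 32 h arrays lay above all untreated ones, with nonselected replicate 2 lowest in both. The difference was 6.47-fold (log2 change 2.69, SE 0.37, adjusted p = 0.000355), and its mean was 9.30 ± 0.61 at 64 h. DnaJ-1, an Hsp40 co-chaperone gene, was at 9.94, 10.25, 10.24 and 10.72 at 32 h and at 10.95, 11.19, 10.85 and 11.01 in untreated flies. Its groups did not overlap, and it was 1.64-fold lower (log2 change -0.71, SE 0.15, adjusted p = 0.0114). The call was lost without the block (adjusted p = 0.0891), without nonselected 32 h replicate 1 and without selected untreated replicate 1 (up to 0.0769).

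Other heat shock genes were not called. Hsp68, an inducible Hsp70 relative, changed by 0.69 (SE 0.26, adjusted p = 0.145), the small heat shock genes Hsp26 and Hsp27 by -0.15 (adjusted p = 0.478) and -0.17 (adjusted p = 0.545), and Hsf, the gene of the heat shock transcription factor, by -0.31 (adjusted p = 0.335). None of the 19 constitutive chaperone genes tested was called, with a median change of -0.03. Of the Turandot and cold-response list, 2 of 3 tested members were lower, where 0.854% of all probe sets were lower. Fst (Frost), a gene induced during recovery from cold, was at 4.54, 5.73, 4.94 and 5.24 at 32 h, against 7.27, 8.26, 7.17 and 7.39 in untreated flies. Selected replicate 2 was highest at both times, and the groups were separate. Fst was at least 4.85-fold lower (log2 change -2.41, SE 0.45, adjusted p = 0.00606), with means of 7.71 ± 0.69 at 4 h, 6.21 ± 0.56 at 16 h, 5.11 ± 0.50 at 32 h and 5.18 ± 0.86 at 64 h (SD, n = 4 each). The other, smp-30, which encodes a regucalcin-like protein, was 1.79-fold lower (log2 change -0.84, SE 0.18, adjusted p = 0.0131) and lost its call in 3 of the 8 fits without 1 array (up to 0.0959).

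Immune genes rose in 3 of 31 tested members of the list, with none lower and a median change of 0.12, where 2.28% of all probe sets were higher. The gene pirk, an inhibitor of Imd signalling, was at 5.82, 6.61, 6.66 and 5.95 at 32 h, against 5.30, 4.87, 5.27 and 5.20 in untreated flies. No array overlapped, and pirk was at least 2.10-fold higher (log2 change 1.10, SE 0.19, adjusted p = 0.00337). Listericin, an antibacterial peptide gene, stood at 7.84, 9.24, 8.31 and 7.97 at 32 h and at 6.16, 7.01, 7.19 and 5.62 in untreated flies. Its groups did not overlap, and its highest array was the one with male transcripts. The difference was 3.59-fold (log2 change 1.84, SE 0.48, adjusted p = 0.0399), but the call was lost without that array (adjusted p = 0.204) and without the block (0.0661).

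The other called member was BomS2, a Bomanin, one of a family of short peptides induced by Toll signalling and needed for survival of infection. The family was therefore looked at as a whole, which was chosen after the values were seen. All 8 Bomanin genes on the array were tested, and 4 were higher, where 2.28% of all probe sets were higher: BomBc2, BomS2, BomS6 and BomT2. BomBc2 stood at 10.68, 10.52, 11.13 and 10.73 at 32 h, against 9.77, 9.56, 9.26 and 9.0 in untreated flies. Its groups lay apart, 2.58-fold (log2 change 1.37, SE 0.26, adjusted p = 0.00574). Changes of BomS2, BomT2 and BomS6 were 1.39 (SE 0.32, adjusted p = 0.0194), 1.29 (SE 0.23, adjusted p = 0.00339) and 0.93 (SE 0.18, adjusted p = 0.00752). These 3 lost their calls without the block (adjusted p = 0.0727, 0.155 and 0.197). Of the 8 fits without 1 array, the call held in 4 for BomS2 and in 8 for BomT2 and BomS6. BomS5 (1.99, adjusted p = 0.0559), BomBc3 (1.51, adjusted p = 0.0614), BomT3 (0.53, adjusted p = 0.156) and BomS4 (0.24, adjusted p = 0.676) were not called. Members of this family are near-identical in places, so signals may be shared between them.

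Classical antimicrobial peptide genes did not pass the test. Drs (Drosomycin), a Toll target, changed by 0.48 (SE 0.22, adjusted p = 0.205), and DptB, an Imd target, by -0.59 (SE 1.12, adjusted p = 0.776) with untreated levels between 5.09 and 7.78. SPE, which was placed in the protease list but cleaves Spätzle to activate Toll, was at 8.84, 9.17, 9.45 and 8.94 at 32 h, against 7.69, 8.20, 7.88 and 7.93 in untreated flies. The groups did not overlap, and the difference was 2.26-fold (log2 change 1.17, SE 0.25, adjusted p = 0.0128). Its call was lost without nonselected 32 h replicate 1, nonselected untreated replicate 2 or selected untreated replicate 1 (adjusted p up to 0.103).

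The named genes with the largest rises included alkaline phosphatase, transporter and protease genes. Alp2, a predicted alkaline phosphatase gene, stood at 7.97, 9.03, 8.48 and 7.36 at 32 h and at 5.47, 4.63, 5.41 and 5.12 in untreated flies. The groups did not overlap, and Alp2 was at least 7.78-fold higher (log2 change 3.05, SE 0.36, adjusted p = 6.26e-05). The largest rise of any called probe set was that of phu. It was at 6.67, 7.63, 7.01 and 4.62 at 32 h, against 3.05, 3.18, 2.98 and 3.37 in untreated flies. All untreated arrays and nonselected 32 h replicate 2 lay under log2 of 5, and the groups did not overlap. It was at least 2.80-fold higher (log2 change 3.34, SE 0.54, adjusted p = 0.00186). At 16 h phu was higher still, with a mean of 8.50 ± 0.98 against 6.48 ± 1.30 at 32 h (SD, n = 4 each), although the difference of 32 h from 16 h, -2.01, was not called (adjusted p = 0.221).

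MFS14, a transporter gene of the major facilitator superfamily, was at 9.36, 9.78, 8.97 and 8.19 at 32 h, while the untreated arrays lay between 7.16 and 7.35. It was 3.55-fold higher (log2 change 1.83, SE 0.26, adjusted p = 0.00059). Mrp5, an ABC transporter gene, was at least 3.28-fold higher (log2 change 1.74, SE 0.38, adjusted p = 0.0155), with its highest array, 7.80, in selected replicate 2, and it was not called without that array (adjusted p = 0.0957). Genes known by number only also rose without overlap: CG14949 (log2 change 2.19, SE 0.27, adjusted p = 7.6e-05), CG14120 (1.72, SE 0.32, adjusted p = 0.00593) and CG8785 (2.08, SE 0.56, adjusted p = 0.0459). CG8785 reached 7.84 in selected replicate 2, above the 4.69 to 5.79 of the other 32 h arrays, and lost its call without it (adjusted p = 0.265).

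Protease genes went both ways. Of the 29 tested genes of the digestive protease list, 2 were higher (Ser12 and SPE), 1 was lower (Try29F) and the median change was 0.0, while 3.13% of all probe sets were called. Ser12 changed by 1.09 (SE 0.26, adjusted p = 0.021) and lost its call without selected 32 h replicate 2 (adjusted p = 0.137). Another 3 predicted serine protease genes outside the list were among the 30 named by size. CG8329 was at 10.17, 9.90, 9.28 and 8.40 at 32 h, against 7.99, 8.04, 7.66 and 5.43 in untreated flies, 4.46-fold higher (log2 change 2.16, SE 0.40, adjusted p = 0.00559). CG3088 was 3.34-fold higher (log2 change 1.74, SE 0.33, adjusted p = 0.00626, or 0.0516 without the block), a call that held in 6 of the 8 fits without 1 array. For both genes the lowest untreated array was nonselected replicate 2.

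CG18180 moved the other way, with 9.62, 9.87, 9.27 and 8.45 at 32 h and 10.60, 10.66, 11.30 and 11.21 in untreated flies. All 32 h arrays were lower, and the difference was 3.12-fold (log2 change -1.64, SE 0.22, adjusted p = 0.000214). The trypsin gene Try29F was at least 3.54-fold lower (log2 change -2.05, SE 0.55, adjusted p = 0.0441). Its call held in only 1 of the 8 fits without 1 array, the one without selected 32 h replicate 1 (adjusted p = 0.00858), and its adjusted p reached 0.207 in the others. Of 16 carbohydrase genes, 1 was called, where 3.13% of all probe sets were called. It was LManV, a lysosomal alpha-mannosidase gene (log2 change 1.42, SE 0.36, adjusted p = 0.0328), which lost its call without selected 32 h replicate 2 (adjusted p = 0.164).

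Among lipid genes the call with the greatest fall was that of Acbp6, which encodes an acyl-CoA binding protein. It stood at 3.86, 6.14, 5.29 and 4.97 at 32 h, against 7.42, 8.18, 9.10 and 7.25 in untreated flies. Selected replicate 1 was lowest at 32 h, and no arrays overlapped. Acbp6 was at least 6.18-fold lower (log2 change -2.92, SE 0.65, adjusted p = 0.0155), a call lost without nonselected 32 h replicate 1, nonselected untreated replicate 1 or selected untreated replicate 2 (adjusted p up to 0.0806). Its relatives Acbp1 (-0.12, adjusted p = 0.604), Acbp2 (0.06, adjusted p = 0.838) and Acbp5 (0.56, adjusted p = 0.16) were not called. Across the 31 lipid genes tested, 3 were higher (AkhR, Npc2f and Npc2h) and 1 lower, with a median change of 0.07. Of all probe sets, 2.28% were higher and 0.854% lower.

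AkhR encodes the receptor of adipokinetic hormone, which mobilises stored fat, and was 0.60 higher (SE 0.16, adjusted p = 0.0359). Npc2f and Npc2h, of a family of sterol-binding proteins, were 1.01 (SE 0.23, adjusted p = 0.0192) and 1.06 (SE 0.25, adjusted p = 0.0201) higher. None of these 3 was called without selected 32 h replicate 2 (adjusted p = 0.175, 0.118 and 0.108). Of the insulin and FoxO list 1 of 15 genes was called, where 3.13% of all probe sets were called. The called gene was sug (sugarbabe), a zinc finger gene induced by dietary sugar. It stood at 7.38, 7.47, 7.31 and 6.06 at 32 h, against 6.07, 5.80, 5.58 and 4.91 in untreated flies. Only nonselected 32 h replicate 2 overlapped with the untreated arrays, and sug was at least 2.72-fold higher (log2 change 1.46, SE 0.26, adjusted p = 0.00339, or 0.084 without the block).

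Of the 9 storage and haemolymph genes tested, 3 were lower and none higher, where 0.854% of all probe sets were lower and 2.28% higher. Lsp2, a larval serum storage protein gene also expressed in the adult fat body, was at 5.03, 4.24, 7.20 and 7.75 at 32 h, against 6.92, 7.86, 9.64 and 10.51 in untreated flies. Pooled over lines the groups overlapped because the selected line was lower at both times, while within each line both 32 h arrays lay under both untreated arrays. It was at least 5.62-fold lower (log2 change -2.68, SE 0.43, adjusted p = 0.00155). The calcium-binding protein gene regucalcin was at 8.06, 8.32, 7.85 and 7.95 at 32 h and at 8.59, 8.85, 8.62 and 8.67 in untreated flies. Its groups did not overlap, and it was 1.55-fold lower (log2 change -0.64, SE 0.10, adjusted p = 0.00123). Sgp was 2.75-fold lower with overlapping groups (log2 change -1.46, SE 0.31, adjusted p = 0.0139) and was lost in 5 of the 8 fits without 1 array, among them that without selected 32 h replicate 2 (adjusted p = 0.0782).

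Among cytochrome P450 and UDP-glycosyltransferase genes, 1 of 52 was higher and 3 were lower, with a median change of 0.13, where 2.28% of all probe sets were higher and 0.854% lower. Cyp12d1-d, a P450 gene known to be induced by insecticides, was at 8.75, 9.66, 8.89 and 9.34 at 32 h, against 10.45, 10.66, 10.34 and 10.45 in untreated flies. The untreated arrays lay close together, above all 32 h arrays, and the gene was 2.49-fold lower (log2 change -1.32, SE 0.21, adjusted p = 0.00187). The probe set shared by Cyp12d1-d and its near-identical copy Cyp12d1-p gave -1.13 (SE 0.25, adjusted p = 0.0155). Cyp309a1 was at least 2.61-fold lower (log2 change -1.48, SE 0.22, adjusted p = 0.000672) and Cyp4s3 at least 1.13-fold lower (-0.69, SE 0.15, adjusted p = 0.0131, or 0.0511 without selected 32 h replicate 2). Cyp313a1 was at least 3.26-fold higher (log2 change 1.92, SE 0.49, adjusted p = 0.0355), with 8.15 in selected 32 h replicate 2 against 6.08 to 7.05 in the other 3, and was not called without that array (adjusted p = 0.171). Of 24 glutathione S-transferase genes 1 was lower, GstE7 (log2 change -0.78, SE 0.15, adjusted p = 0.00752, or 0.177 without the block), and of 14 antioxidant genes none was called.

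The largest fall among genes with 1 symbol belonged to CG7214, at 4.27, 4.62, 3.75 and 3.75 at 32 h, against 8.37, 8.05, 8.33 and 4.67 in untreated flies. Nonselected untreated replicate 2 lay close to the highest 32 h array and far under the other 3 untreated arrays. CG7214 was at least 5.13-fold lower (log2 change -3.26, SE 0.68, adjusted p = 0.0118), with the call lost without nonselected 32 h replicate 1, nonselected untreated replicate 1 or selected untreated replicate 1 (adjusted p up to 0.0669). Falls without overlap were also called for CG16956 (-1.95), CG13324 (-1.52), CG12224 (-1.46), the cadherin gene Cad74A (-1.13), CG12716 (-1.02) and CG9396 (-0.81), with adjusted p from 0.00129 for CG12224 to 0.019 for CG12716. Of the 8 fits without 1 array the call held in 8 for CG12224, in 6 for CG16956 and Cad74A, in 5 for CG13324 and CG12716, and in 4 for CG9396, which was also lost without selected 32 h replicate 2 (adjusted p = 0.0944). The probe set annotated to alcohol dehydrogenase Adh and its neighbour Adhr was at least 1.49-fold lower (log2 change -0.93, SE 0.10, adjusted p = 3.87e-05), a probe set chosen after its value was seen.

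Chorion genes, expressed by follicle cells at the end of oogenesis, had a median change of -2.69 over the 11 tested, yet none was called. Cp19 was at 5.69, 12.88, 13.09 and 11.28 at 32 h, against 13.01, 13.29, 13.52 and 13.87 in untreated flies. Selected 32 h replicate 1 lay far under the other 7 arrays, nonselected 32 h replicate 1 overlapped the untreated range, and the change was -2.69 (SE 1.04, adjusted p = 0.151). With selected 32 h replicate 2 left out, 8 of the 11 were called lower, against 1.21% of all probe sets, and the list's median was -4.49. With selected 32 h replicate 1 left out none was called, and the median was -0.79. Of the 12 vitelline membrane and early follicle genes tested, 1 was higher, where 2.28% of all probe sets were higher, and the median was -1.02. The higher gene was mirr, a homeobox gene (log2 change 0.58, SE 0.11, adjusted p = 0.00692, or 0.0563 without nonselected 32 h replicate 1). None of the 6 yolk protein list genes was called, with Yp1 at -0.01 (SE 0.13, adjusted p = 0.981).

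None of 28 germline genes and none of 30 cell cycle genes was called by their brightest probe sets, with medians of -0.18 and -0.33. A second probe set of nanos, a translational repressor gene of the germline, was called at -0.51 (adjusted p = 0.0374). The fit without selected 32 h replicate 1 called 14 germline and 23 cell cycle genes lower, against 15.1% of all probe sets. Selected 32 h replicate 2, the array with male transcripts, was the lowest in both lists (medians -0.53 and -0.89 against the untreated mean). The part of the male transcripts in these values was not tested. Where 2.28% of all probe sets were higher, muscle genes had 2 of 19 higher (Scp2 at 1.46, adjusted p = 0.0174, and Strn-Mlck at 0.58, adjusted p = 0.0272), and photoreceptor genes 1 of 12 (Arr1 at 0.79, adjusted p = 0.0452). These 3 were not called without selected 32 h replicate 2 (adjusted p = 0.0783, 0.149 and 0.214), and nonselected untreated replicate 2 was the lowest array in both lists. Among 11 hormone genes Kr-h1, a zinc finger gene that responds to juvenile hormone, was called at 0.89 (adjusted p = 0.0491, or 0.246 without selected 32 h replicate 2). No gene of the proteasome (26 tested), glycolysis (11) or odorant-binding protein (16) lists was called.

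The lines were then compared in their change at 32 h. Tested within a line, 42 probe sets were called in the selected line (0.512%), 30 higher (0.366%) and 12 lower (0.146%). In the nonselected line 13 were called (0.159%), 7 higher (0.0854%) and 6 lower (0.0732%). These counts do not show that the lines differ, and the test of the difference itself, selected minus nonselected, called 0 of 8199 (0.0%). Its smallest adjusted p was 1.0, and 224 probe sets had an unadjusted p under 0.05. Among the 257 called probe sets the median size of the change was 0.877 in the selected line and 0.746 in the nonselected line. The tim transcript changed by 3.30 in selected and by 2.94 in nonselected flies, a difference of 0.36 (SE 0.36). For MtnA it was 3.19 and 2.39, a difference of 0.80 (SE 0.77), and for phu 4.03 and 2.64, a difference of 1.39 (SE 1.08). The Hsp70B probe set fell by 4.25 in selected and by 2.59 in nonselected flies. Leaving out selected 32 h replicate 1, 66 probe sets passed the test of the line difference, in a fit where the selected line at 32 h is represented by the array with male transcripts alone.

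**Figure D4:**
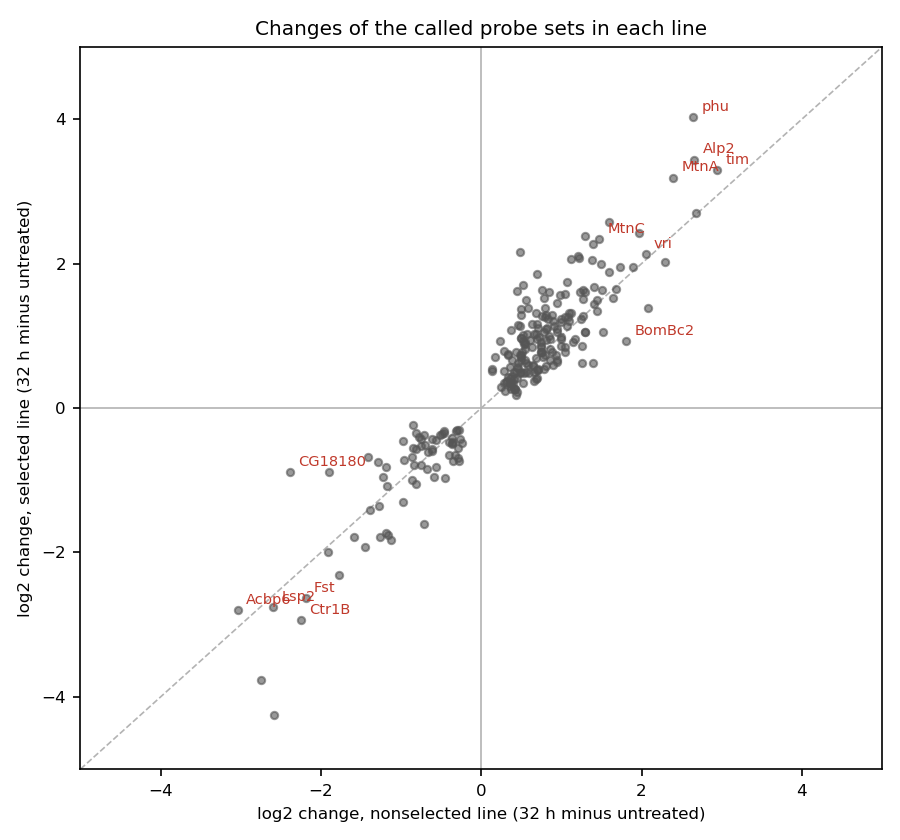
Log2 change 32 h minus untreated in the selected line (vertical) and the nonselected line (horizontal) for the 257 called probe sets, each a point, with some genes named. The dashed line marks equal changes; the points were chosen by the mean change of both lines, which largely fixes that their signs match.

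Replicate number was the second split. Within replicate 1 arrays 117 probe sets were called and within replicate 2 arrays 65, with 24 of the 257 passing in both. The transcript of vri changed by 2.21 in replicate 1 and 1.96 in replicate 2, Alp2 by 2.78 and 3.32, and Fst by -2.48 and -2.34. Acbp6 changed by -3.69 and -2.15.

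Neighbouring times were compared without using the untreated arrays. Against 16 h, 17 probe sets were called (0.207%), 3 higher at 32 h (0.0366%) and 14 lower (0.171%). Against 64 h, 28 were called (0.342%), 5 higher (0.061%) and 23 lower (0.281%). Both comparisons use the 4 arrays at 32 h, so their overlap is not independent. The 16 and 64 h times lie whole days apart, while 32 h lies part of a day from each. Time since heat and time of day can thus not be told apart in these differences. Acsx3, an acyl-CoA synthetase gene, was at 5.12 ± 0.16 at 32 h, against 7.60 ± 0.35 at 16 h and 8.07 ± 0.52 at 64 h (SD, n = 4 each). It differed by -2.49 from 16 h (SE 0.23, adjusted p = 6.06e-06) and by -2.96 from 64 h (SE 0.23, adjusted p = 2.83e-07), while its difference from untreated flies was -0.21 (SE 0.23, adjusted p = 0.598). CG10553 (5.82 at 32 h, 7.58 at 16 h, 7.80 at 64 h), the vitamin transporter gene Smvt (6.75, 8.63 and 8.96) and CG3739 (7.43, 9.82 and 9.68) were likewise lower at 32 h than at both times. Against untreated flies CG3739 was higher, with overlapping groups (log2 change 1.65, SE 0.40, adjusted p = 0.027). That call held in 4 of the 8 fits without 1 array. CG10553 was not called against untreated flies (0.43, SE 0.23, adjusted p = 0.284).

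Sgp differed by -2.31 from 16 h (adjusted p = 0.00113) and by -1.97 from 64 h (adjusted p = 0.00325), and the UDP-glycosyltransferase gene Ugt35B1 by -1.99 from 64 h (adjusted p = 0.0148). Higher at 32 h than at both times were vri and Obp99a, an odorant-binding protein gene. Obp99a was at 11.45 ± 0.41 at 32 h, against 9.96 ± 0.66 at 16 h and 9.59 ± 0.42 at 64 h, and at 11.52 ± 0.53 in untreated flies (SD, n = 4 each). Of the 11 chorion genes tested, Cp15 alone was called against 16 h, 3.82 higher (SE 0.77, adjusted p = 0.0341), where 0.0366% of all probe sets were higher. Against 64 h Cp19 alone was called, 4.82 higher (SE 1.04, adjusted p = 0.0488), where 0.061% of all probe sets were higher. The median level of the chorion list at 32 h was 3.9 in selected replicate 1, against 10.04 to 11.1 on the other arrays. CG15155 and CG16704 were 1.08 (adjusted p = 0.0148) and 0.93 (adjusted p = 0.0398) higher than at 64 h. These 5 genes of the comparison with 64 h and the 3 of that with 16 h were all the higher calls.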

How the data were processed

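The series has 36 arrays of whole adult females in 18 groups of 2. The authors deposited linear GCRMA intensity values, per the submitters' processing notes, without a version. Of 14010 probe sets, 44 were controls. Of the other 13966, 12443 had 1 symbol in GEO's platform annotation, 327 several and 1196 none. Symbols were updated through Entrez identifiers with RefSeq (12394 matched). The genome build is not given in the sources used here. Median intensity per array was 43.47 to 52.04, and 0 pairs of arrays were identical. The number of arrays limits precision, and there are no detection calls.

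Log2 was taken without a pseudocount. Probe sets entered the test when the mean of their 4 highest arrays reached log2 of 5, leaving 8199 (7312 with 1 symbol, 6884 genes). One limma 3.58.1 model in R 4.3.3 (lmFit, eBayes) held 18 group coefficients and the replicate number as a block, with 17 residual degrees of freedom (median residual SD 0.187). Contrasts used limma with Benjamini-Hochberg adjustment and a threshold of 0.05. The procedure was checked on simulated data.

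Genes named by rule were, among probe sets with 1 symbol, the 15 highest and 15 lowest calls at 32 h without overlap, the 5 highest and 5 lowest calls of the other contrasts, and any list member. A gene was represented by its brightest probe set. Members, rule and gene lists were chosen with earlier results of these data known. Some list symbols were respelled to current names after the values were seen, through which Npc2f and Npc2h entered. Alternatives were no block, only the arrays compared, other filters, a pseudocount of 32, quantile normalization, trend and robust options, each replicate number and each array left out.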

Additional observations from a re-analysis of the deposited data

Results flagged for a closer look

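In groups of 4 arrays, 6 of 68 sets of values had an array far from the other 3 (Dixon's test). Chance gives about 1 in 20 for independent sets. These sets share arrays and include genes picked by their values, so their count cannot be set against that rate. In untreated flies nonselected replicate 2 was the low array for CG8329 (5.43, against 7.66 to 8.04 on the other untreated arrays), CG7214 (4.67, against 8.05 to 8.37) and CG13324 (6.34, against 7.36 to 7.55). Selected untreated replicate 2 was low for MtnC (7.89, against 9.88 to 10). At 32 h the median level of the chorion list was 3.9 in selected replicate 1, against 10.04 to 11.1 on the other 3 arrays. The median level of the male reproductive list was 5.84 in selected 32 h replicate 2, against 3.08 to 3.43 on the other 3.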

How the results depend on the processing

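The count of 257 was 90 without the replicate block, 2 with only the arrays of the groups compared, 117 and 65 within replicate 1 and 2, and 13 with nonselected 32 h arrays only, an alternative chosen after seeing the data. The 42 calls of the selected line became 16 without the block, 1 with only the arrays compared and 24 under a stricter filter. The 13 of the nonselected line became 4, 381 with only the arrays compared, and 7 without a filter. The comparison with 16 h gave 0 with only the arrays compared (17 in the full fit), and 57 and 34 within replicate 1 and 2. That with 64 h gave 0 and 15 (28 in the full fit) with only the arrays compared and within replicate 2, and 9 with nonselected 32 h arrays only. Leaving out 1 array gave 55 to 2014 for 32 h against untreated, 5 to 2006 in the selected line, 2 to 15 in the nonselected line, 0 to 66 for the line difference, 9 to 127 against 16 h and 16 to 207 against 64 h. The cause of these shifts was not tested. No called change among the 66 probe sets followed singly turned its sign in these alternatives. The block, the filters, the trend and robust options and the use of only the arrays compared do not alter the estimate. These settings could not turn a sign. Of these 66, 57 were called in the full fit, 57 after quantile normalization, 35 without the block, 6 with nonselected 32 h arrays only and 1 (tim) with only the arrays compared, where Alp2 had adjusted p = 0.129 and MtnA 0.135; 24 to 57 were called with 1 array left out.

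The replicate numbers did not meet the criterion for pairing, although same-numbered deviations were shared in part. Over all groups, 121 of 153 pairs had them correlated over 0.1 (median 0.331). Among the 4 groups compared 3 of 6 pairs did (median 0.147, lowest -0.434). The block was used because the labels number the bioreplicates across all groups.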

Other observations

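Some called genes lay outside all lists and the rule, and were chosen after their values were seen. Cipc, the fly relative of a mammalian inhibitor of CLOCK, changed by 1.11 (SE 0.21, adjusted p = 0.00714; called in 7 of the 8 fits without 1 array), with 1.70 in selected flies, 0.52 in nonselected flies and overlapping groups. Slob, which encodes a protein that binds the Slowpoke potassium channel, changed by 1.02 (SE 0.24, adjusted p = 0.024; called in 3 of 8), also with overlap. The homeobox gene Dr changed by 1.15 without overlap (SE 0.13, adjusted p = 5.43e-05) and kept its call in all 8 fits without 1 array. The Activin-like ligand gene daw (1.20, SE 0.28, adjusted p = 0.019) and the ornithine decarboxylase gene Odc1 (1.22, SE 0.29, adjusted p = 0.024) were also higher without overlap, with calls in 4 and 2 of these 8 fits.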
